A study of Mus musculus with 3 samples.

Results

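Ribosomal protein pseudogenes are annotated copies of the genes for cytosolic ribosomal proteins, and their levels were examined in mouse embryonic stem cells (ESCs) in which the Usp17l family of deubiquitinating enzymes was knocked down. The members are the rows whose symbol starts with Rpl or Rps and ends in -ps, with or without a number after it (Rps26-ps1, for example). There are 190 such rows among the 32545 rows of the table. Each was set beside its parent, the ribosomal protein gene whose symbol it carries, and the members have 55 parents, all of which are in the table. All 190 matched the GENCODE M21 mouse annotation by symbol, which lists 179 as processed pseudogenes, 7 as transcribed processed pseudogenes and 4 as protein-coding genes.

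The cells were E3 mouse ESCs at passage 7, derived from hybrid C57BL/6 and 129S6 blastocysts and grown on mouse embryonic fibroblast feeders. KD4 and KD9 are stable knockdown lines, each grown from 1 clone, that carry short hairpin RNAs against sequence common to the Usp17l genes, and Control is the E3 line with the empty vector. The KD lines were selected with puromycin. There was 1 labelled sample for each of KD4, KD9 and Control, and the table held 2 columns for each KD line. The columns of a line, called column 1 and column 2, were averaged and counted as 1 replicate, although the study describes its RNA-seq as 2 biological replicates. Expression is given in TPM, a level per length of annotated exon scaled so that a column sums to 1000000, made by the authors from uniquely mapped reads of poly(A)-selected RNA.

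A processed pseudogene arises when a messenger RNA is reverse transcribed and inserted back into the genome, so it lacks the introns of its parent and often carries mutations that end the reading frame. Ribosomal protein genes are among the most highly expressed genes of dividing cells such as ESCs, and they have left many such copies in mammalian genomes. Because a young copy is almost identical to its parent, a short read from one can align to the other, and counting of uniquely mapped reads keeps only those reads that the aligner placed at 1 location. A read counted on a pseudogene is therefore not by itself evidence that the pseudogene was transcribed.

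Each TPM value multiplied by the exon length in GENCODE M21 came out as a whole multiple of 1 step per column, within 0.05 of a read, for 99.1% of genes with up to 20 reads, so read numbers could be recovered. To the nearest 1000, the columns held 24544000 and 19995000 assigned reads in KD4 and 29377000 and 25752000 in KD9, against 26117000 in Control. The 5 Usp17l genes summed to 0.651 and 0.591 TPM in KD4 and 1.51 and 0.683 TPM in KD9, against 4.66 TPM in Control. The 10 ESC markers summed to 6514 and 6426 TPM in KD4 and 4808 and 4815 TPM in KD9, against 4463 TPM in Control, with none at 0. Of these, Pou5f1, Dppa5a, Tdgf1 and Utf1 were under Control in KD9 and the others above it. The 15 fibroblast markers summed to 529 and 539 TPM in KD4 and 2242 and 2244 TPM in KD9, against 3018 TPM in Control, with none at 0. In KD9, Dcn, Lum and Col3a1 were above Control and the other fibroblast markers under it. The part of the feeder cells in the results was not tested.

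The pseudogenes together had 10311 and 8607 TPM in KD4 and 9967 and 9738 TPM in KD9, against 9852 TPM in Control. Their parents summed to 61108 and 69646 TPM in KD4 and 59180 and 56902 TPM in KD9, against 53461 TPM in Control. The pseudogene sum was thus 16.9% and 12.4% of the parent sum in KD4 and 16.8% and 17.1% in KD9, against 18.4% in Control. KD4 column 2 gave the lowest share of the 5 columns. Counted as reads, pseudogenes held 5.28% and 3.98% of the number on their parents in KD4 and 5.37% and 5.49% in KD9, against 5.71% in Control, and they took 0.191% to 0.233% of all assigned reads. The 12 highest pseudogenes held 71.7% to 77.1% of the pseudogene TPM of a column.

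Levels spanned a wide range. The median pseudogene had a mean of 1.76 TPM over the 3 samples, while parents ran between 129 and 3171 TPM with a median of 899 TPM. Of the 190 pseudogenes, 125 reached the mean of 0.5 TPM needed to be compared between lines and 65 did not. There were 127 above 0 in all 5 columns and 1 at 0 in all 5, Rpl31-ps4, a copy of the large-subunit gene Rpl31. Means of at least 10 TPM were found for 57 pseudogenes, of at least 100 TPM for 18 and of at least 1000 TPM for 2.

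The highest pseudogene was Rps12-ps3 (chr19:59322290-59322783, plus strand, mm10), a copy of the small-subunit gene Rps12 that lies within Pdzd8 and is annotated as protein-coding. It had 1828 and 512 TPM in KD4 and 1641 and 1500 TPM in KD9, against 1786 TPM in Control. The low value was KD4 column 2, and the other 3 KD columns lay between 1500 and 1828 TPM. Rps12-ps3 matched the Rps12 transcript at every one of 494 aligned bases. The stretches of 90 bases shown here, bases 82 to 171 of Rps12-ps3 and 158 to 247 of Rps12, are given because they are the same in both genes, so that a read within them carries no mark of its origin. Here and below, sequences are from GENCODE M21 transcripts (mm10, transcript strand), and capitals mark bases that differ between pseudogene and parent.
Rps12-ps3: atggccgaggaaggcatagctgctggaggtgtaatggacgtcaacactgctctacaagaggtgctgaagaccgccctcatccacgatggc
Rps12: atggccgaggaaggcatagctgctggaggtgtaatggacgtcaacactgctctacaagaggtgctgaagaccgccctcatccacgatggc

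The second highest, Rpl34-ps1, is a copy of the large-subunit gene Rpl34. It had 1439 and 1092 TPM in KD4 and 1144 and 1146 TPM in KD9, against 1417 TPM in Control, where Rpl34 itself had 233 TPM. Rps10-ps2, a copy of the small-subunit gene Rps10, had 1004 and 860 TPM in KD4 and 1091 and 1063 TPM in KD9, against 984 TPM in Control. Rpl34-ps1 and Rps10-ps2 stood at 609% and 218% of their parents' TPM in Control, and Rps12-ps3 at 228%. These excesses rested on the scale. Rpl34 has 2643 bases of annotated exon, all isoforms joined, and Rpl34-ps1 has 354, so the same number of reads gives the pseudogene the higher TPM. In reads, Rpl34-ps1 had 5146 and Rpl34 6313 in Control, Rps10-ps2 had 5007 and Rps10 10698, and Rps12-ps3 had 9052 and Rps12 16271. By TPM 4 pseudogenes exceeded their parent in Control, and by reads 0 did in any of the 5 columns.

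The rest of the 12 highest were copies of large-subunit genes (Rpl3-ps1, Rpl14-ps1, Rpl38-ps2, Rpl17-ps10, Rpl17-ps3, Rpl31-ps8 and Rpl36a-ps2) and of small-subunit genes (Rpsa-ps10 and Rps16-ps2). Rps16-ps2 varied little between columns, with 387 and 402 TPM in KD4 and 392 and 394 TPM in KD9, against 360 TPM in Control. Rpsa-ps10, a copy of the gene for the small-subunit protein also known as the laminin receptor, had 548 and 408 TPM in KD4 and 880 and 878 TPM in KD9, against 385 TPM in Control. Its KD9 columns stood above all others, at a log2 fold change over Control of 1.19 against 0.31 for KD4. Rpsa had 1836 and 1950 TPM in KD4 and 1627 and 1537 TPM in KD9, against 1634 TPM in Control.

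Level went with likeness to the parent. Of the 190 pseudogenes, 186 aligned to their parent's transcript over at least 50% of their length, with a median identity of 98.2% and a range of 83.3% to 100%. The mean level had a Spearman rho of 0.75 and a Pearson r of 0.60 with identity across these 186 pseudogenes, on the log2(TPM + 0.1) scale. This is a description across genes that share libraries and, in many cases, a parent. All 58 pseudogenes of at least 99% identity passed the 0.5 TPM filter, with a median of 26.5 TPM. Among the 84 of 95% to 99% identity, 58 passed and the median of all 84 was 1.29 TPM, and among the 44 below 95% only 8 passed and the median of all 44 was 0.150 TPM.

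**Figure D1:**
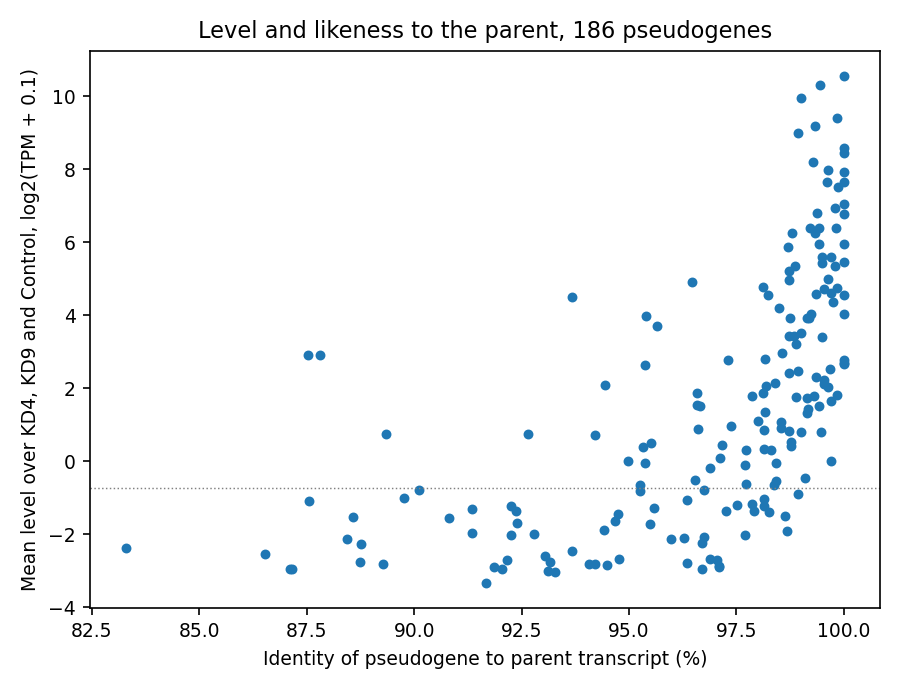
Mean level over KD4, KD9 and Control on the log2(TPM + 0.1) scale (vertical axis) against identity to the parent transcript in percent (horizontal axis), 1 point for each of the 186 aligned pseudogenes, with the 0.5 TPM filter as a dotted line. High levels crowd at the right edge, where identity is at least 99%, and most points below 95% lie under the filter.

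The share of a pseudogene that can be told from the rest of the transcriptome gave the same order. For each pseudogene, the share of its 100-base stretches found in no other annotated transcript was computed. The 41 pseudogenes with under 25% unique stretches all passed the filter, with a median of 32.0 TPM, while 36 of the 96 with at least 75% passed, with a median over all 96 of 0.307 TPM. There were 14 pseudogenes identical to the parent over the whole alignment, and 13 of them had no unique stretch of 100 bases, yet their mean levels ran between 6.21 and 1509 TPM with a median of 85.9 TPM. The first 6 of the 14 in name order are Rpl10-ps1, Rpl10-ps3, Rpl10a-ps1, Rpl15-ps3, Rpl27-ps3 and Rpl28-ps1. All are copies of large-subunit genes, since that order places Rpl before Rps. Rps12-ps3, a copy of a small-subunit gene, is also among the 14. At the other end, Rpl29-ps1 (83.3% identity), Rps13-ps6 and Rps27a-ps1 had at most 2 reads in any column. Rpl36a-ps3, also of low identity, stood apart with 6.24 and 6.71 TPM in KD4 and 7.69 and 5.50 TPM in KD9, against 9.41 TPM in Control, and its sequence was nearer to the paralog Rpl36al than to Rpl36a. Rpl9-ps8, of similarly low identity, was at most 0.520 TPM, its Control value. How the aligner placed the reads of these copies was not tested.

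The comparison of KD lines with Control asks which pseudogenes moved when Usp17l was knocked down. Of the 125 compared, 5 were over 2-fold lower in both KD lines, on the log2(TPM + 0.1) scale, while 3.2% of all 19950 genes compared met the same rule. Over 2-fold higher in both lines were 9, beside 2.47% of all genes. The filter is on the mean over KD4, KD9 and Control, so a pseudogene near 0 in Control can pass through the KD lines alone. Rpl30-ps3, Rps15-ps2, Rpl22-ps1 and Rpl31-ps15 did so, with at most 0.260 TPM in Control, so their direction is partly set by the filter. Of the 178 other named pseudogenes compared, 8 were lower and 12 higher, and of the 55 parents 0 were either. KD4 and KD9 share their only Control, so agreement between the lines includes any error of that 1 library. In single lines, 14 pseudogenes were higher (5.18% of all genes) and 9 lower (9.5%) in KD4, and 12 were higher (4.21%) and 14 lower (5.45%) in KD9.

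**Figure D2:**
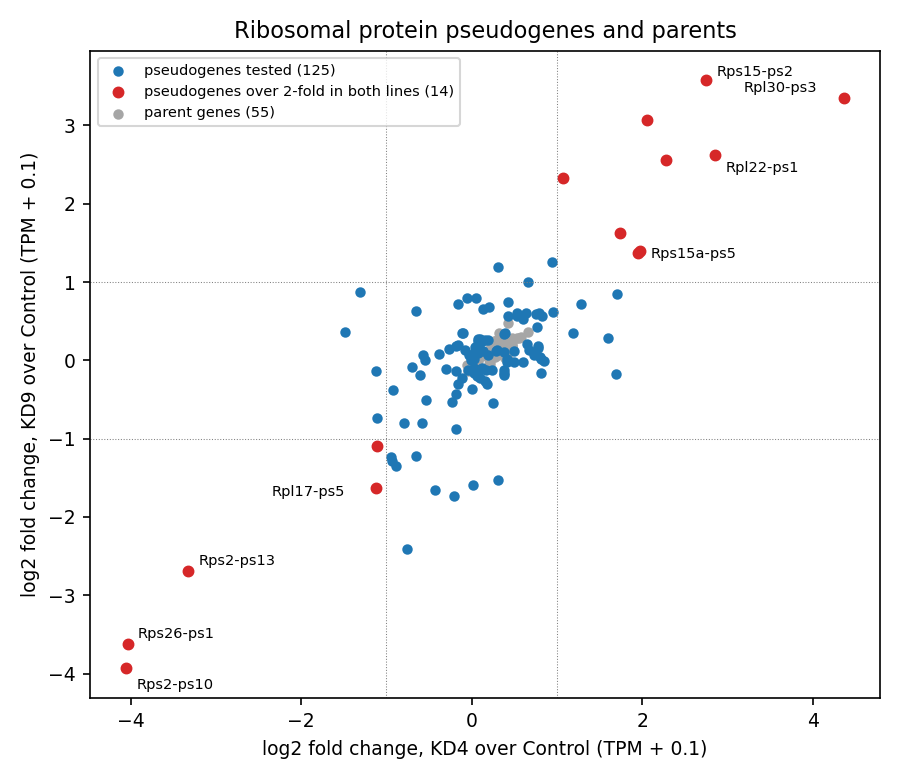
Log2 fold change over Control in KD4 (horizontal axis) and KD9 (vertical axis), on TPM + 0.1, for 125 pseudogenes (blue, or red for the 14 over 2-fold in both lines) and their 55 parents (grey), with dotted lines at 2-fold. The parents form a small cloud near 0, while Rps2-ps10, Rps26-ps1 and Rps2-ps13 lie far to the lower left at -4.05, -4.04 and -3.33 in KD4.

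The pseudogenes furthest below Control were copies of small-subunit genes. Rps26-ps1, a copy of Rps26, had 16.3 and 10.4 TPM in KD4 and 18.1 and 17.6 TPM in KD9, against 221 TPM in Control. In reads these were 73, 37, 99 and 85, against 1018 in Control. All 4 KD columns were far under Control, and the exact Poisson 95% intervals, which cover counting error only, reached at most 22.1 TPM in the KD columns and began at 208 TPM in Control. Control was 16.5 times the KD4 mean and 12.4 times the KD9 mean. The parent Rps26 had 1575 and 1428 TPM in KD4 and 1504 and 1386 TPM in KD9, against 1364 TPM in Control, with log2 fold changes of 0.14 and 0.08. The fibroblast marker sum was also under Control (3018 TPM), at 529 and 539 TPM in KD4 and 2242 and 2244 TPM in KD9, though Dcn, Lum and Col3a1 were above Control in KD9. Rps26-ps1 had similar levels in both KD lines, and the part of these markers in the result was not tested. In bulk RNA, fewer cells of a type and less RNA per cell cannot be told apart.

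Rps26-ps1 lies at chr8:107439131-107439579 on the minus strand (mm10), within Wwp2, a ubiquitin ligase gene, and is annotated as a transcribed processed pseudogene. Over the part that aligns, it has 99.4% identity to Rps26 with 2 mismatches. The alignment does not cover the whole pseudogene, and the rest of its bases are not compared here. Wwp2 had 21.8 and 21.1 TPM in KD4 and 18.4 and 18.2 TPM in KD9, against 19.9 TPM in Control, or 0.11 (KD4) and -0.12 (KD9) as log2 fold changes over Control. The stretches of 90 bases around 1 of the mismatches, bases 227 to 316 of Rps26-ps1 and 494 to 583 of Rps26, are shown because they differ at that base only.
Rps26-ps1: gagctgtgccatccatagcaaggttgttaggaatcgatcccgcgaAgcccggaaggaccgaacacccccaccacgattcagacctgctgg
Rps26: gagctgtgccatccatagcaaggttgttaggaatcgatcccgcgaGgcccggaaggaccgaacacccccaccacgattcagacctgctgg

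Of the copies of Rps2, a small-subunit gene, Rps2-ps10 and Rps2-ps13 were far lower in the KD lines. Rps2-ps10 had 12.3 and 7.61 TPM in KD4 and 9.63 and 11.9 TPM in KD9, against 166 TPM in Control, with 58 to 124 reads in the KD columns and 1647 in Control. On the log2 scale KD4 was at -4.05 and KD9 at -3.93 relative to Control. All 4 KD columns were under Control, which is a single library. Rps2-ps10 lies within Pde6a, a phosphodiesterase gene of rod photoreceptors that was at most 0.171 TPM in any column. Rps2-ps13 had 33.5 and 6.46 TPM in KD4 and 30.7 and 31.7 TPM in KD9, against 202 TPM in Control. KD4 column 2 was the lowest, and all 4 KD columns were under Control, with log2 fold changes of -3.33 and -2.69.

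Rps2 itself was on the other side of Control. It had 2748 and 3282 TPM in KD4 and 2552 and 2517 TPM in KD9, against 2087 TPM in Control, with log2 fold changes of 0.53 and 0.28. The 7 Rps2 pseudogenes together gave 90.1 and 21.3 TPM in KD4 and 80.6 and 91.9 TPM in KD9, against 394 TPM in Control, so most of the Control sum came from Rps2-ps13 and Rps2-ps10. Pseudogenes and parent summed to 2838 and 3304 TPM in KD4 and 2633 and 2609 TPM in KD9, against 2481 TPM in Control.

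Rps2-ps13 is at chrX:52898588-52899469 on the plus strand (mm10), outside other annotated genes, with a reading frame as long as that of its parent. It has 99.2% identity to Rps2, with 7 mismatches. The 90 bases shown, bases 27 to 116 of Rps2-ps13 and 100 to 189 of Rps2, hold 2 of them.
Rps2-ps13: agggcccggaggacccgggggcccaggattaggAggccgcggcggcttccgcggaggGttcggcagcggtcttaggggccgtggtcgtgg
Rps2: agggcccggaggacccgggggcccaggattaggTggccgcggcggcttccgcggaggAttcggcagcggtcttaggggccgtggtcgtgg

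Rpl17-ps5, a copy of the large-subunit gene Rpl17, had 19.9 and 29.4 TPM in KD4 and 17.5 and 17.3 TPM in KD9, against 53.9 TPM in Control. The KD values lay well under Control, with log2 fold changes of -1.13 and -1.63, while Rpl17 had 0.27 and 0.25. The fifth, Rps15a-ps4, had 0.399 and 0.757 TPM in KD4 and 0.983 and 0.185 TPM in KD9, against 1.36 TPM in Control, which is 1 to 6 reads in the KD columns and 7 in Control. The counting intervals of Rps15a-ps4 in all 4 KD columns overlapped that of Control, so a difference was not detectable at this depth. Rps19-ps6, a copy of a small-subunit gene named here after its values were seen, had 22.9 and 46.0 TPM in KD4 and 26.8 and 22.9 TPM in KD9, against 63.7 TPM in Control, and missed the 2-fold rule in KD4 with -0.88.

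**Figure D3:**
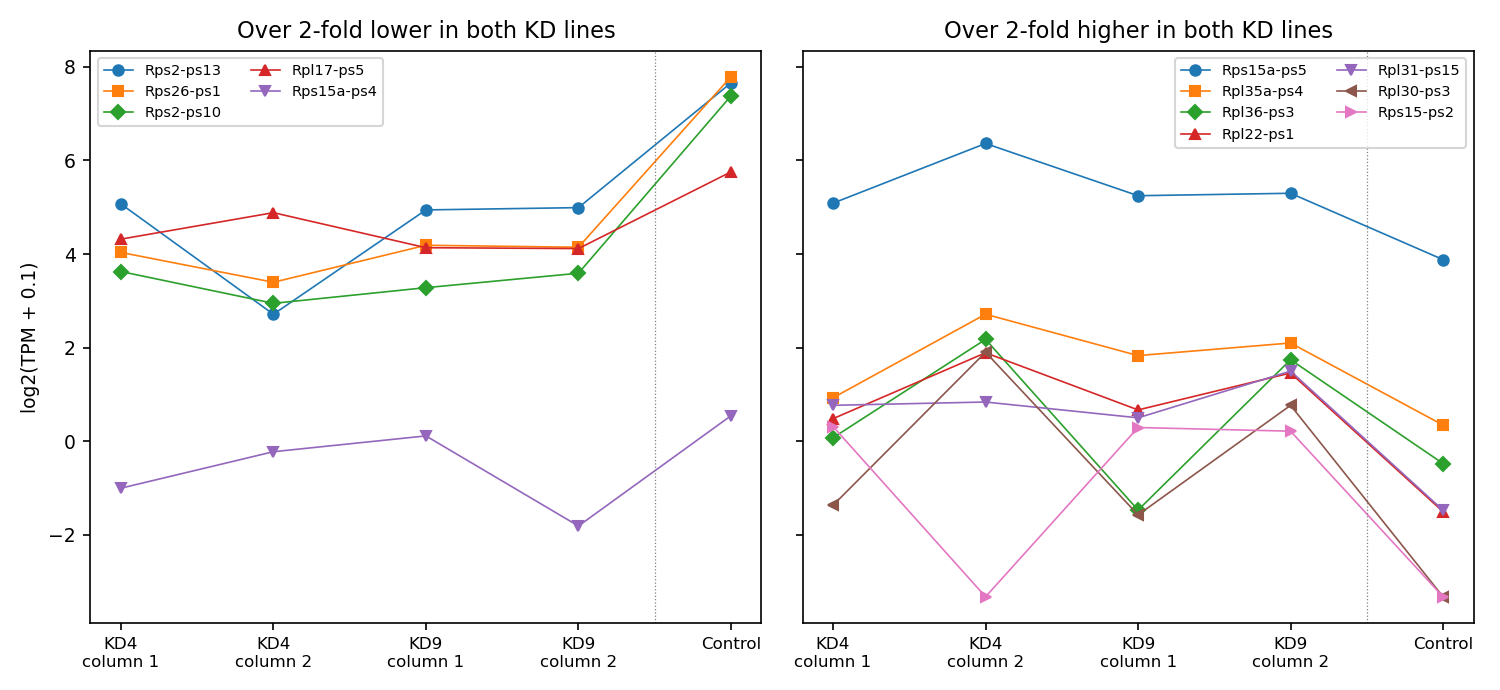
Level of pseudogenes over 2-fold lower (left) or higher (right) in both KD lines, as log2(TPM + 0.1), in the 2 columns of KD4, the 2 of KD9 and Control. Lines only join the points of a gene. The 5 lower ones lie under Control in all 4 KD columns, and of the 7 higher ones drawn 5 lie above Control in all 4. They were chosen by the means of these same columns, so the side of a column is largely set by that choice.

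Among the 9 higher in both lines, Rps15a-ps5 was the only one with a mean of at least 10 TPM. This copy of the small-subunit gene Rps15a had 33.9 and 82.2 TPM in KD4 and 37.9 and 39.3 TPM in KD9, against 14.6 TPM in Control, with 133, 255, 181 and 166 reads against 59. All KD columns lay above Control, and their counting intervals began at 28.4 TPM while that of Control ended at 18.9 TPM. On the log2 scale KD4 stood 1.98 and KD9 1.39 above Control. KD4 column 2 was over 2-fold above the other KD columns, and with the first columns alone Rps15a-ps5 stood at 33.9 and 37.9 TPM against the same Control. Rps15a had log2 fold changes of 0.31 and 0.07. Rps15a-ps5 (chr5:105797321-105797713, minus strand, mm10) lies within Lrrc8d, a gene for a subunit of volume-regulated anion channels, which had 37.3 and 37.7 TPM in KD4 and 27.3 and 28.2 TPM in KD9, against 35.5 TPM in Control. The log2 fold changes of Lrrc8d were 0.08 and -0.35.

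In sequence, 86.4% of the 100-base stretches of Rps15a-ps5 were found in no other transcript. Its bases 82 to 171, shown beside bases 97 to 186 of Rps15a, hold 3 of its 5 mismatches.
Rps15a-ps5: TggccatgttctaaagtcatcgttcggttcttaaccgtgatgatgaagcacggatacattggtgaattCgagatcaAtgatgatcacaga
Rps15a: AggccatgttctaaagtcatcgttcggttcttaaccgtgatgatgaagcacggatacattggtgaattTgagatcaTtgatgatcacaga

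A further 6 were low. Rpl35a-ps4, a copy of a large-subunit gene, had 1.81 and 6.47 TPM in KD4 and 3.46 and 4.19 TPM in KD9, against 1.17 TPM in Control, with 6 to 17 reads in the KD columns and 4 in Control. Rpl22-ps1 and Rpl31-ps15, also from the large subunit, had 1 read each in Control, where they were at 0.253 and 0.260 TPM. In the KD columns Rpl22-ps1 had 5, 11, 7 and 11 reads and Rpl31-ps15 had 6, 5, 6 and 11. Both were above Control in all 4 columns, but the filter and the choice by the means of these same columns largely set that side. For Rpl22-ps1 the counting interval of Control reached 1.41 TPM, above the 1.30 TPM of KD4 column 1. For Rpl31-ps15 it reached 1.45 TPM, above the 1.32 TPM of KD9 column 1. Rpl36-ps3 had 3, 11, 1 and 11 reads in the KD columns and 2 in Control, and KD9 column 1 lay under Control on the TPM scale. Its limma log2 fold change was 1.66, and -0.22 with the first columns only. Rpl30-ps3 and Rps15-ps2 are listed at 0 in Control, and no fold is given. Rpl30-ps3 had 0.288 and 3.64 TPM in KD4 and 0.236 and 1.60 TPM in KD9, with its higher value in column 2 of both lines. Rps15-ps2 had 1.14 and 0 TPM in KD4 and 1.13 and 1.06 TPM in KD9.

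The 2 directions were also counted among pseudogenes of higher mean level. Among the 57 pseudogenes of at least 10 TPM, a limit chosen after seeing the data, 4 were lower in both lines (0.79% of all 10259 genes at that level) and 1 was higher (0.497%). The 4 were Rps26-ps1, Rps2-ps10, Rps2-ps13 and Rpl17-ps5, and the 1 was Rps15a-ps5. The limit is on the mean over KD4, KD9 and Control, so a high Control value lifts a lower pseudogene over it. Rps2-ps10, for example, had 166 TPM in Control and 7.61 to 12.3 TPM in the KD columns. These counts therefore do not show that the directions differ in level. Identity to the parent ran between 97.7% and 99.6% for the 5 lower and between 92.7% and 99.7% for the 9 higher.

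KD against Control was tested with limma on log2(TPM + 0.1), in which KD4 and KD9 were 2 replicates and the lone Control was assumed to vary as they do. With Benjamini-Hochberg adjustment over all 19950 genes, 0 pseudogenes were called in either direction, as were 0 genes of the whole table, and the lowest adjusted p of a pseudogene was 0.64. At an unadjusted p under 0.05 there were 10 higher (2.54% of all genes) and 5 lower (2.68%). The limma log2 fold changes were -3.83 ± 0.29 for Rps26-ps1, -3.99 ± 0.25 for Rps2-ps10, -3.01 ± 0.36 for Rps2-ps13 and 1.69 ± 0.35 for Rps15a-ps5 (SE). With each of the 5 columns as its own library, limma gave an adjusted p of 0.015 for Rps26-ps1, of 0.017 for Rps2-ps10 and of 0.049 for Rps6-ps1, the only 3 pseudogenes called, beside 3.91% of all genes called higher and 6.94% lower. That fit takes the columns of a line as independent, which the labels do not give. Its p-values measure only the spread between the columns of a KD line and leave out that between KD4 and KD9. Rps6-ps1, a copy of a small-subunit gene, had 4.56 and 4.41 TPM in KD4 and 3.85 and 3.61 TPM in KD9, against 2.48 TPM in Control.

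The median pseudogene lay 0.12 (KD4) and 0.08 (KD9) above Control on the log2 scale, where the median log2 fold change of all genes was -0.02 and -0.06 and that of the 55 parents 0.31 and 0.14. The median difference between pseudogene and parent was -0.14 in KD4 and -0.07 in KD9. Across the 125 compared, the log2 fold changes of pseudogene and parent had a Spearman rho of 0.11 in KD4 and -0.04 in KD9, given as a description since copies of 1 parent share its value. The quartiles in KD4 were -0.18 and 0.60 for pseudogenes, 0.20 and 0.42 for parents, and -0.39 and 0.28 for all genes. The pseudogenes thus spread wider than their parents, but all genes did so too. The compared pseudogenes had a median of 6.77 TPM and the parents 899 TPM, and the part of level in the spread was not tested.

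The ribosomal protein genes themselves differed little between lines. Of 47 large-subunit genes, 43 had a positive log2 fold change in KD4 and 40 in KD9, with medians of 0.35 and 0.17. Of 32 small-subunit genes, 32 were positive in KD4 and 28 in KD9, with medians of 0.31 and 0.15. In neither list was a gene called by limma. The large-subunit genes had 0 over 2-fold in either line, and the small-subunit genes had 1, Rps29 in KD4 (1.12 on the log2 scale). Of 9 tissue-restricted or duplicated ribosomal protein paralogs, the medians were 0.07 and -0.02, with 1 over 2-fold lower, Rpl39l in KD4 (-1.17). Rps29 and Rpl39l are named after their values were seen.

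**Figure D4:**
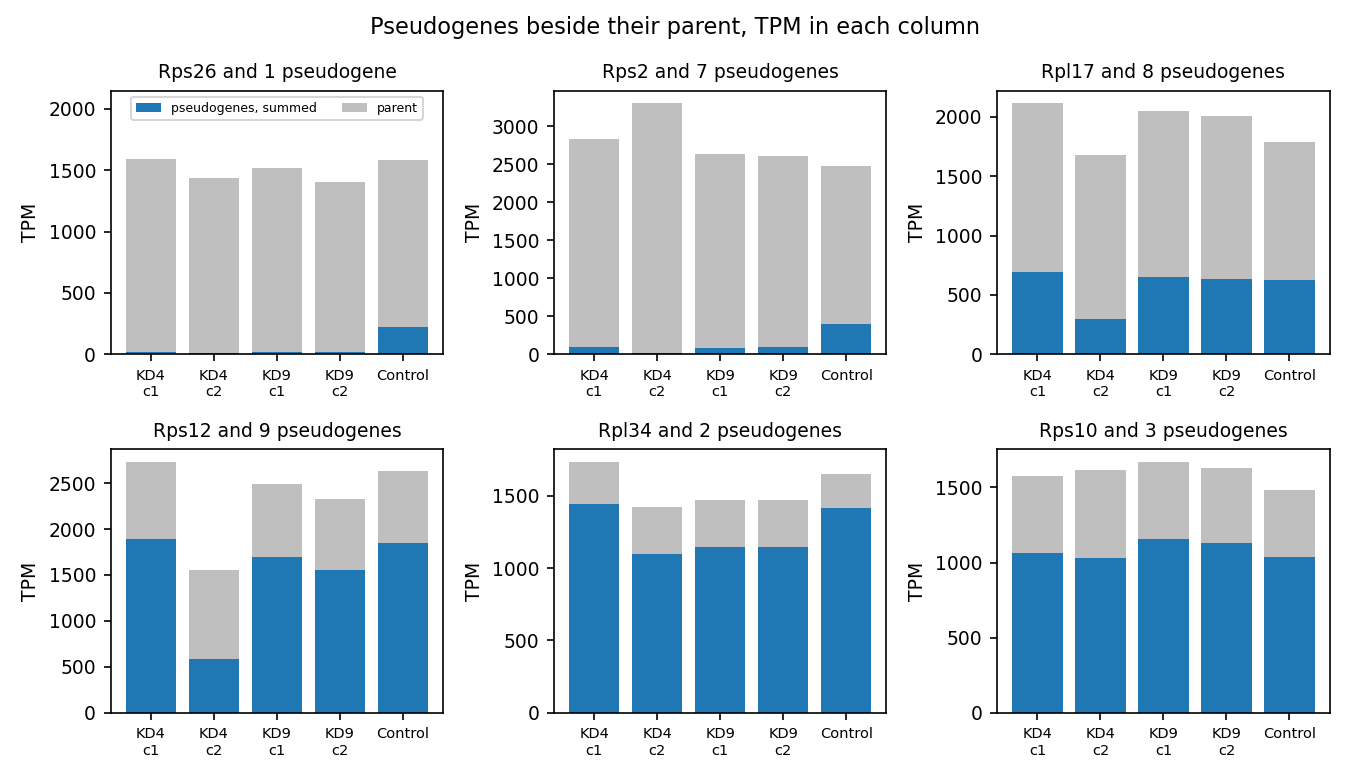
TPM of 6 parents (grey) and of all their pseudogenes summed (blue), stacked, in each column (c1 and c2 are columns 1 and 2 of a line). The blue part is larger in Control than in any KD column for Rps26 and Rps2. It is smallest in KD4 column 2 for all 6 parents, though for Rps10 only by 1030 against 1035 TPM in Control. TPM is per annotated exon length, so a short pseudogene weighs more than its reads.

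KD4 column 2 stood apart from the other columns in many pseudogenes. Among the 57 pseudogenes of at least 10 TPM, the log2 ratio of column 2 to column 1 had an SD of 1.03 in KD4 and 0.27 in KD9, while the 55 parents had 0.21 and 0.056. In KD4, 18 of the 57 differed over 2-fold between columns, 11 lower and 7 higher in column 2, and in KD9 1 did. Among all 10259 genes of that level the share was 1.74% in KD4 and 0.429% in KD9. KD4 column 2 lay over 1.5 times beyond all 4 other columns for 21 of the 57, beside 2.05% of all 10259 genes. Control did so for 6 of the 57 (3.45% of all genes), KD9 column 2 for 2 (0.312%), and KD4 column 1 (0.419%) and KD9 column 1 (0.185%) for 0.

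Besides Rps12-ps3, several pseudogenes were low in KD4 column 2, here named after their values were seen where they are not among the 12 highest. Rpl17-ps10 had 360 and 119 TPM in KD4 and 347 and 313 TPM in KD9, against 312 TPM in Control. Rpl9-ps6, a copy of a large-subunit gene, had 214 and 67.6 TPM in KD4 and 211 and 200.5 TPM in KD9, against 205 TPM in Control. In both the other 4 columns lay close together. Others were high in that column. Rpl15-ps2 had 46.4 and 142 TPM in KD4 and 60.5 and 43.5 TPM in KD9, against 28.8 TPM in Control, and Rps10-ps1 had 61.3 and 170 TPM in KD4 and 66.4 and 63.1 TPM in KD9, against 50.8 TPM in Control. Both copies were also above Control in the remaining KD columns, and their KD4 log2 fold changes, 1.71 and 1.19, rest largely on column 2. The reads behind these values numbered 381 for Rpl9-ps6 and 689 for Rpl15-ps2 in KD4 column 2, and 1522 and 284 in KD4 column 1.

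**Figure D5:**
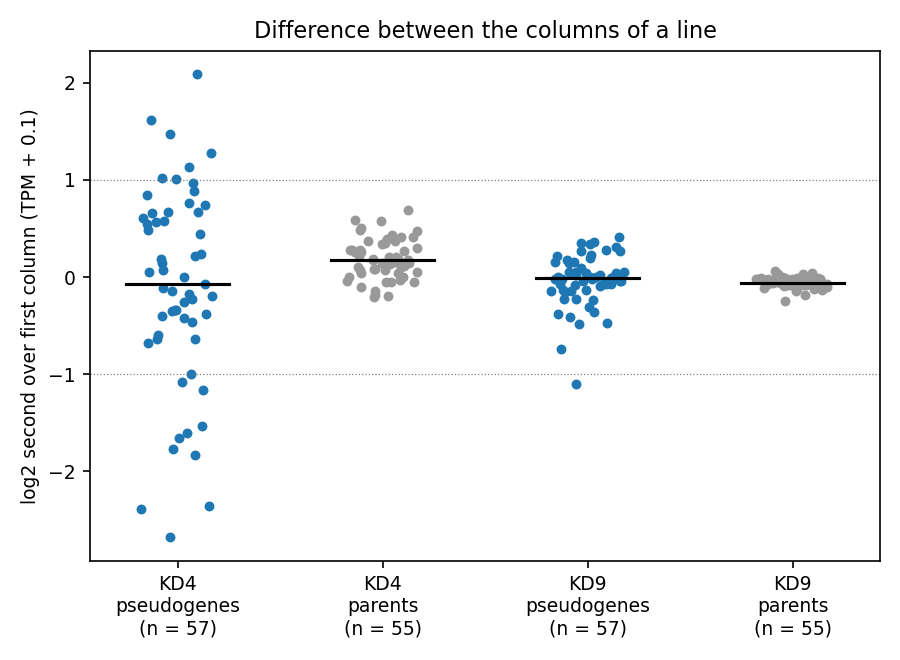
Log2 ratio of column 2 to column 1 (TPM + 0.1) within KD4 and within KD9, for the 57 pseudogenes of at least 10 TPM (blue) and the 55 parents (grey), with the median as a bar and dotted lines at 2-fold. The KD4 pseudogenes spread past 2-fold on both sides, with an SD of 1.03, and the KD9 pseudogenes have an SD of 0.27.

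With the first column of each line alone, 9 pseudogenes were over 2-fold lower in both lines (3.24% of 19945 genes) and 7 higher (2.24%), against 5 and 9 with the columns averaged. Rps26-ps1, Rps2-ps10 and Rps2-ps13 were lower in each column taken by itself. The copies of the Rpl17 family, 8 in number, summed to 692 and 298 TPM in KD4 and 651 and 634 TPM in KD9, against 626 TPM in Control, and the 9 copies of Rps12 to 1894 and 583 TPM in KD4 and 1699 and 1556 TPM in KD9, against 1847 TPM in Control. For these families the lower KD4 mean came from column 2 alone.

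The pseudogenes are spread unevenly over parents. There were 20 parents with 4 or more, led by Rpl31 with 14, Rpl21 with 10, and Rps12 and Rps19 with 9 each. The 14 copies of Rpl31 summed to 255 and 186 TPM in KD4 and 266 and 298 TPM in KD9, against 245 TPM in Control, with 6 of the 14 past the filter. The 9 copies of Rps19 summed to 45.1 and 69.3 TPM in KD4 and 46.2 and 41.8 TPM in KD9, against 81.4 TPM in Control. Rps19-ps6 alone gave 22.9 and 46.0 TPM in KD4, 26.8 and 22.9 TPM in KD9, and 63.7 TPM in Control. The lower KD sums came from that copy and do not describe the other copies. The 7 copies of Rpsa summed to 579 and 450 TPM in KD4 and 907 and 907 TPM in KD9, against 405 TPM in Control. Most of each Rpsa sum was Rpsa-ps10, which had 385 TPM in Control. In structure, 186 of the 190 have 1 exon, 72 lie within or overlap another gene and 8 share exon sequence with one by position. The longest reading frame equals the parent's in 78 and is under 50% of it in 64.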

How the data were processed

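The TPM values deposited by the authors came from reads trimmed in Trim Galore and aligned to mm10 by HISAT2 under default settings, with featureCounts used on those that mapped uniquely. Versions, annotation and strand setting are not given in the sources used here. Unique counting removes reads that the aligner scores equally on parent and pseudogene, and aligner scoring places the rest. Pseudogenes identical to the parent over the alignment still held counted reads. The members and gene lists were chosen with earlier results of these data known.

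Of the deposited columns, 5 were used. 1 further column, a second control by its name, has no labelled sample and was left out, though its values had been seen. The 2 columns of a line were averaged. In the main limma fit, a single Control means that p-values measure only the spread between KD4 and KD9, which may be technical. With each column as its own library, they measure only the spread between the columns of a KD line.

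Log2 fold changes are on the log2(TPM + 0.1) scale, which understates changes of low genes, for 19950 genes with a mean of at least 0.5 TPM. A fold over 2 described single lines. limma 3.58.1 in R 4.3.3 (trended eBayes, two-sided, Benjamini-Hochberg, 1 residual and 3.01 prior degrees of freedom) tested KD against Control, and was tested on simulated data. Sequences came from GENCODE M21 transcripts. Each pseudogene was aligned to the parent transcript with Biopython 1.88. Tables were made with Python 3.11.15. Read numbers were recovered from TPM and M21 exon lengths, since the files hold no counts. They were used for depth, for reads of pseudogenes beside their parents and for intervals, and not for fold changes or limma. Depth ranged between 19995000 and 29377000 reads. Named pseudogenes are the 12 highest, up to 8 per direction over 2-fold in both lines with the largest smaller change, members called by limma, the 6 of highest and 6 of lowest identity, those at 0 throughout, with exceptions stated in the text, and some of these are not reported here. Ties in identity were broken by name order. Other pseudocounts, filters, folds, scalings and single columns were tried.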

Additional observations from a re-analysis of the deposited data

How the results depend on the processing

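Counts of pseudogenes over 2-fold depended on the settings, partly by construction where fewer or more genes were compared, and the cause was otherwise not tested. In KD4, 14 higher became 36 with no filter, 6 with a filter of 5 TPM, 9 with first columns only, 23 with second columns only and 33 at a fold of 1.5. In KD4, 9 lower became 5 with a pseudocount of 0.5, 4 with a pseudocount of 1, 22 with no filter, 4 with a filter of 5 TPM, 14 with first columns only, 15 with second columns only, 19 at a fold of 1.5 and 3 at a fold of 3. In KD9, 12 higher became 27 with no filter, 3 with a filter of 5 TPM, 27 at a fold of 1.5 and 7 at a fold of 3. In KD9, 14 lower became 6 with a pseudocount of 1, 6 with a filter of 5 TPM and 8 at a fold of 3. In both lines, 9 higher became 5 with a pseudocount of 1, 15 with no filter, 2 with a filter of 5 TPM, 17 at a fold of 1.5 and 1 with a filter of 10 TPM, the last chosen after seeing the data. In both lines, 5 lower became 9 with no filter, 9 with first columns only, 12 at a fold of 1.5 and 3 at a fold of 3. Leaving out a KD line, so that only the other must pass, gave 12 to 14 higher and 9 to 14 lower.

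The median log2 fold change in KD4 was 0.16 after rescaling by median ratios, 0.17 with first columns only and 0.043 with second columns only. In KD9 it was 0.12 with a filter of 5 TPM, 0.16 after rescaling and 0.11 with second columns only. The median difference between pseudogene and parent in KD4 was -0.19 with a pseudocount of 1, -0.031 with first columns only and -0.29 with second columns only, and in KD9 -0.023 with second columns only. limma called 1 higher and 2 lower with each column as its own library (Rps26-ps1 at -3.85 and Rps2-ps10 at -4.02), and 0 under the other settings. Among 32 named pseudogenes, 7 changed sign in limma under a setting, none of them called. With first columns only, Rpl17-ps10 was at 0.18, Rpl17-ps3 at 0.19 and Rpl36-ps3 at -0.22. With second columns only, Rpl10-ps3 was at -0.011, Rpl15-ps3 at -0.0074, Rpl31-ps8 at -0.068 and Rps10-ps2 at -0.042. Rescaled, Rpl17-ps3 was at 0.061. With 1 KD line left out, no limma fit was made, and the values are the log2 fold changes of the remaining line over Control. They ranged from -0.38 to 0.080 for Rpl17-ps10 and -0.18 to 0.177 for Rpl17-ps3. For Rpl31-ps8 they ranged from -0.158 to 0.195, and for Rps10-ps2 from -0.079 to 0.13. No paired analysis was possible because KD and Control share fewer than 2 replicate numbers. Depth limits the pseudogenes with a few reads per column most.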
